A study of Mus musculus with 4 samples.

Results

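Cytochromes P450 of families 1, 2 and 3 were followed in the livers of OGT-floxed mice on a choline-deficient, ethionine-supplemented (CDE) diet. Members were all listed genes whose symbol is Cyp, then 1, 2 or 3, 1 lower-case letter and a number, which gave 46 of the 13903 listed genes, in 15 subfamilies. Of these, 29 had a mean of at least 10 CPM (read counts scaled so that the listed genes of each library sum to 1000000) over the 4 libraries and were compared between libraries together with the other genes above that mean, 8963 in all. The remaining 17 were kept as levels, and no member was at 0 in any library.

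All mice were OGT-floxed on the C57BL/6J background and all were fed the CDE diet, which injures hepatocytes and drives a duct-like reaction. The OGT-KO groups were given AAV8-TBG-CRE and the control groups AAV8-TBG-eGFP, where the TBG promoter directs expression to hepatocytes, so that other liver cells are not targeted. Collection was either without recovery or after a 7 day recovery from the diet, and the age and sex of the mice are not in the labels. RNA of 3 mice was pooled in equal amounts into 1 library for each of the 4 conditions, so no value has a replicate error, no test between conditions was made, and the intervals given are 95% exact binomial intervals that cover counting error only. A difference was called at 2-fold or more on the log2(CPM + 1) scale, which understates the change of low genes.

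Family 1 to 3 enzymes are haem proteins of the endoplasmic reticulum that oxidise drugs, carcinogens, steroids and fatty acids with electrons from the reductase Por. Their genes are read under the aryl hydrocarbon receptor (AHR, gene Ahr), the constitutive androstane receptor (CAR, gene Nr1i3), the pregnane X receptor (PXR, gene Nr1i2) and liver-enriched factors such as Hnf4a and Cebpa. Many of them lie in tandem clusters of close copies, are held to pericentral or periportal hepatocytes, and in mice differ between the sexes under growth hormone.

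The libraries held 19972699 to 22866431 reads on listed genes, so that 1 read was 0.0437 to 0.0501 CPM. Ogt itself, the deleted gene, had 64.7 CPM in the control and 55.3 in the OGT-KO library with no recovery, and 55.7 in the control and 77.7 in the OGT-KO library after 7 days. At library totals Ogt after 7 days therefore goes against the label (0.47 on the log2 scale). Under median-ratio scaling, which sets the libraries by their typical gene, Ogt was lower at both times (-0.93 and -0.20). The median of all compared genes under that scaling was -0.19 and -0.18, so Ogt after 7 days was near the typical gene. The directions below are between the libraries labelled OGT-KO and those labelled control. Hepatocyte markers summed to 79213 and 55038 CPM (control, then OGT-KO) with no recovery and to 90637 and 66890 after 7 days, with 3 of the 7 listed lower by the 2-fold call in the first pair and 4 in the second (6 and 5 under median-ratio scaling), and Alb, Apoa1 and the others were far above 0 in every library. Markers of stellate cells and fibroblasts summed to 202 and 3319 CPM and then 143 and 4073 (8 of 8 higher at both times under either scaling), those of macrophages to 272 and 1055 and then 99.9 and 791 (6 of 6, and 5 and then 6 under median-ratio scaling), and those of bile duct to 53.7 and 1148 and then 69.6 and 1457 (5 of 5 under either scaling). Endothelial markers summed to 171 and 296 and then 118 and 218 CPM (2 of 5 and 1 of 5 higher, and 0 and 1 under median-ratio scaling), lymphocyte markers to 7.67 and 38.6 and then 3.40 and 34.5 (the 1 above the mean filter higher), and none of the listed markers was at 0. In RNA of whole liver, fewer hepatocytes and less of an RNA per hepatocyte cannot be told apart, and the part of the other cell types in the results below was not tested.

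The promoters of 2 near-identical pairs are shown first, because Cyp2a4 differed between labels by a far larger factor than Cyp2a5, and Cyp3a25 and Cyp3a59 lay on opposite sides of their controls. The windows are the 250 bases before the transcription start in the RefSeq promoter table, build GRCm38.p6, which held 39 of the 46 members. Cyp2a4 at chr7:26306942-26307191 (plus strand) and Cyp2a5 at chr7:26835089-26835338 (plus strand) were 97.6% identical over 251 aligned positions, and their coding sequences 98.4%. Cyp3a25 at chr5:146009619-146009868 (minus strand), the second of its starts in that table, and Cyp3a59 at chr5:146079008-146079257 (plus strand) were 94.8% identical, and their coding sequences 97.5%. Capitals mark the bases that differ from the other window of the pair, including 1 base at an end of each where the windows are offset.
Cyp2a4: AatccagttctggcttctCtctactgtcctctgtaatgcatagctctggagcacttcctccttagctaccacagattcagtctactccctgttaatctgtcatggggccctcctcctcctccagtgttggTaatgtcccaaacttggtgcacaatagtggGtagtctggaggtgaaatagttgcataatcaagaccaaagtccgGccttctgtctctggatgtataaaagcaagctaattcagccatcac
Cyp2a5: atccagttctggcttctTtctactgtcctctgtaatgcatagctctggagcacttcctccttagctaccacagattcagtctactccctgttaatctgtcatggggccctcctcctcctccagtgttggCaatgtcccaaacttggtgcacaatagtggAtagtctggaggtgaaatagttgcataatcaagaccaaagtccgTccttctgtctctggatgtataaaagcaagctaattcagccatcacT
Cyp3a25: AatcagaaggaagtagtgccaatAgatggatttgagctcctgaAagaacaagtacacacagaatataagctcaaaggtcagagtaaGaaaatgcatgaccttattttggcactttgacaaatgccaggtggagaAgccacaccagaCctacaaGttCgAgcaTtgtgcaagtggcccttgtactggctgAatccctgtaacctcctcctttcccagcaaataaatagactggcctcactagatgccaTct
Cyp3a59: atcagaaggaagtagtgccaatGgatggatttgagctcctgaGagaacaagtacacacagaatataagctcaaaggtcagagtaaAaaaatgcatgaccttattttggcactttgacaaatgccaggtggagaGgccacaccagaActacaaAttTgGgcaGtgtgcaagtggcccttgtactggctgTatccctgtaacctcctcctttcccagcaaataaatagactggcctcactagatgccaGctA

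Both Cyp2a windows hold the HNF1 motif GTTAAT, found in 6 of the 39 members and in 6.43% of all 32851 promoter windows of the same length. For Cyp3a25 and Cyp3a59 the shared motif is the nuclear receptor motif AGGTCA, found in 11 of 39 members and in 14.0% of all windows. The TATA box TATAAA lay in 21 of 39 members against 12.4% of all windows, the AHR core GCGTG in 5 of 39 against 28.2%, and the STAT motif TTCNNNGAA in 0 of 39 against 7.02%. Motifs were searched on both strands, none of these 5 contains another, and a match is a run of letters and not a shown site. The next windows are those of the member with the most reads over the 4 libraries together (Cyp3a11, chr5:145879855-145880104 (minus strand)), of 2 members that were much lower in the OGT-KO libraries (Cyp2e1, chr7:140763569-140763818 (plus strand), and Cyp2c29, chr19:39286835-39287084 (plus strand)) and of the classical AHR target Cyp1a1 (chr9:57697363-57697612 (plus strand)), with matches to any of the 5 motifs in capitals.
Cyp3a11: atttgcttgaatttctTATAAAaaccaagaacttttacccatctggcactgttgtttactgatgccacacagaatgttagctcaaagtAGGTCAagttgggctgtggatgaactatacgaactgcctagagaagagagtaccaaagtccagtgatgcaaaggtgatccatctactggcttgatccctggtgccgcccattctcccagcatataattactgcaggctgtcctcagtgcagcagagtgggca
Cyp2e1: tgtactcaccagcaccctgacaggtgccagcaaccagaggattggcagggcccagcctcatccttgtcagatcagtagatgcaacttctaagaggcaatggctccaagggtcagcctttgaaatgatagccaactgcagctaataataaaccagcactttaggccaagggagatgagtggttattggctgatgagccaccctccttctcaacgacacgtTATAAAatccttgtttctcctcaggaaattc
Cyp2c29: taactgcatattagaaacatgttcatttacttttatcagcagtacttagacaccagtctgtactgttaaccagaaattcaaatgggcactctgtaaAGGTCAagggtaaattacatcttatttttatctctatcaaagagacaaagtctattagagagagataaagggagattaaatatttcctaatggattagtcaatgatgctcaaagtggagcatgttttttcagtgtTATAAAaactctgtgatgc
Cyp1a1: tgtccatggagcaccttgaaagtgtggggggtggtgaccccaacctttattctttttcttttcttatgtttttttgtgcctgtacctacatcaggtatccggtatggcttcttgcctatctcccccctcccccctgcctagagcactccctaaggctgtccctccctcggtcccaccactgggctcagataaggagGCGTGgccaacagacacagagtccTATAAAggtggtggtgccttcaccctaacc

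Cyp3a11 and Cyp2c29 each show AGGTCA and TATAAA, Cyp1a1 shows GCGTG and TATAAA, and Cyp2e1 shows TATAAA alone. As the values below show, Cyp3a11 was within 2-fold of its controls and Cyp2c29 was called lower at both times, under library totals or median-ratio scaling. The part of any of these motifs in the members' values was not tested.

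As a group, the members were lower in the OGT-KO libraries than in the controls, while at library totals most other genes were higher. Their summed level was 24630 CPM in the control and 16816 CPM in the OGT-KO library with no recovery, 1.46-fold lower (1.46 to 1.47). After 7 days the sums were 25370 and 15681 CPM, 1.62-fold lower (1.61 to 1.62). The median log2 difference of the 29 compared members was -0.58 with no recovery and -0.95 after 7 days, whereas that of all 8963 compared genes was 0.51 and 0.48. The shift of all genes depends on the scaling. At library totals the 100 highest genes took 42.8% and 45.0% of the control reads and 34.1% and 34.3% of the OGT-KO reads. Under median-ratio scaling the median of all genes was -0.19 and -0.18, and that of the members -1.29 and -1.64. The 7 hepatocyte markers had medians of -0.87 and -1.56 at library totals and -1.59 and -2.25 under median-ratio scaling. These lay below those of the members, so a lower median is not particular to the members. The gap between members and all genes was -1.09 and -1.43 at library totals and -1.11 and -1.45 under median-ratio scaling. A scaling shifts the members and all genes nearly alike, so this likeness was fixed in advance and is no separate support.

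With no recovery, 7 of 29 members were called lower (all compared genes: 5.69%) and 4 higher (24.4%). After 7 days 13 were called lower (4.27%) and 5 higher (22.9%). At both times 7 were lower (3.74%), namely Cyp2c29, Cyp2c50, Cyp2c54, Cyp2d40, Cyp2e1, Cyp2f2 and Cyp2j5, and 4 were higher (19.2%), namely Cyp2a4, Cyp2a5, Cyp2b10 and Cyp3a59. Median-ratio scaling gave 17 lower (15.4%) and 3 higher (10.4%) with no recovery, 20 lower (11.8%) and 3 higher (11.6%) after 7 days, and 17 lower (10.4%) and 2 higher (9.35%) at both times, the last 2 being Cyp2a4 and Cyp2b10. The share of members called lower was thus above that of all genes under either scaling, and the share called higher was at or below it. Cyp2a4 (8.94 and 9.66 CPM in the controls) and Cyp2b10 (6.96 and 10.6) passed the mean filter through their OGT-KO levels. Cyp2d40, below 10 CPM in both OGT-KO libraries, passed it through its control levels.

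**Figure D1:**
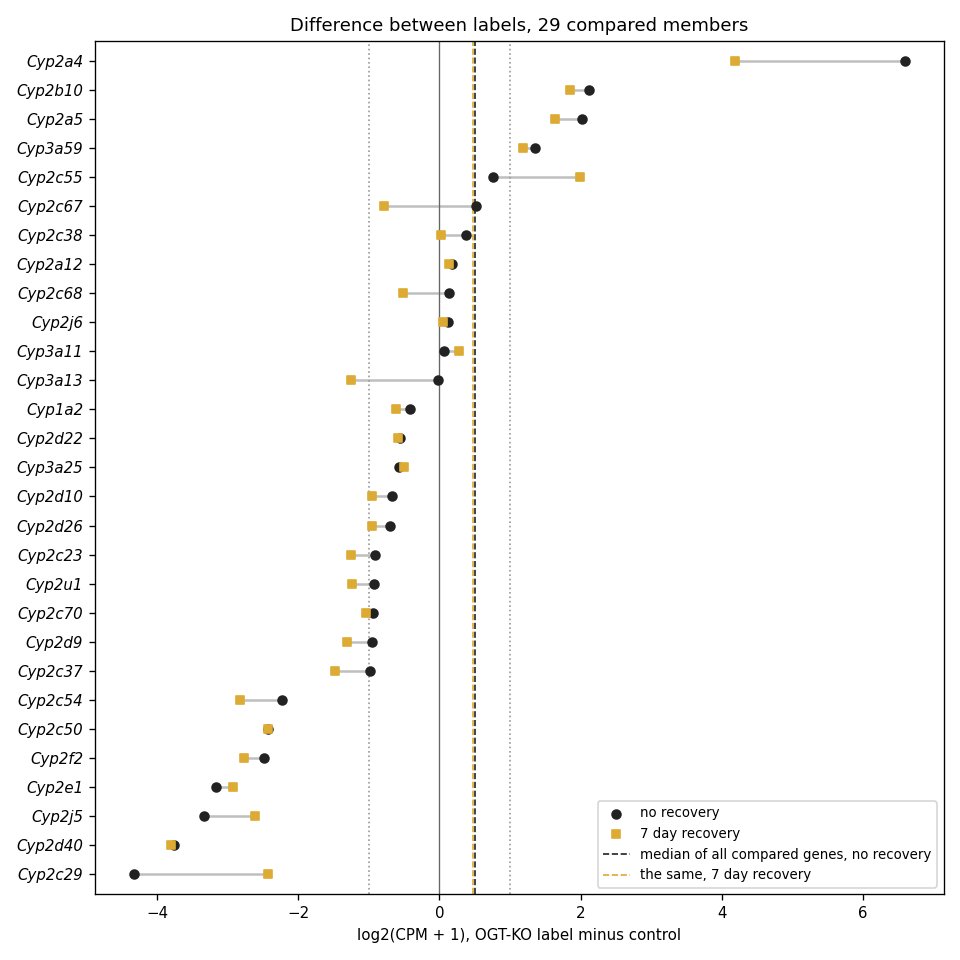
Difference in log2(CPM + 1), OGT-KO label minus control, of the 29 compared members with no recovery (circles) and after 7 days (squares), 1 library per condition; dotted lines mark 2-fold and dashed lines the median of all compared genes (0.51 and 0.48). Most members lie to the left of the dashed lines, with Cyp2c29 lowest and Cyp2a4 highest with no recovery.

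The member with the highest level per kilobase in both controls was Cyp2e1, the enzyme that oxidises ethanol and activates acetaminophen and is held to pericentral hepatocytes, and it was far lower in the OGT-KO libraries. Cyp2e1 had 5235 CPM in the control and 586 in the OGT-KO library with no recovery, 8.94-fold lower (8.78 to 9.10). Its level after 7 days was 6470 CPM in the control and 849 in the OGT-KO library, 7.62-fold lower (7.50 to 7.74). Both OGT-KO libraries were below both controls. Per kilobase of the principal coding transcript, where levels of different genes can be set side by side, Cyp2e1 ranked 1 of 46 in both controls, with 22.6% and 27.1% of the members' summed CPM per kilobase, and 7 and 3 in the OGT-KO libraries, with 3.88% and 6.15%.

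Cyp2f2, which oxidises naphthalene and in liver marks periportal hepatocytes, was lower as well. It had 2199 and 392 CPM in the control and OGT-KO libraries with no recovery, 5.61-fold lower (5.48 to 5.74), and 1854 and 270 after 7 days, 6.87-fold lower (6.68 to 7.06). Members from both ends of the liver lobule therefore stood among those called lower. Of the 8 members listed as pericentral, Cyp2e1, Cyp2c29, Cyp2c50 and Cyp2c54 were called lower at both times at library totals (all compared genes: 3.74%). Cyp2c37 was called lower only after 7 days, and Cyp1a2 and Cyp3a11 at neither time. Cyp2a5 was called higher at both (all compared genes: 19.2%). Under median-ratio scaling 6 of the 8, now with Cyp2c37 and Cyp1a2, were lower at both times (10.4%) and 0 higher (9.35%). The 8 summed to 15634 and 11023 CPM with no recovery and to 16491 and 11246 after 7 days.

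Subfamily Cyp2c, whose 13 members include arachidonic acid epoxygenases, was lower in sum at both times. It summed to 3582 and 1172 CPM with no recovery, 3.06-fold lower (3.01 to 3.10), and to 3817 and 1242 after 7 days, 3.07-fold lower (3.03 to 3.12). Its compared members spread widely, from Cyp2c29 at 20.4-fold lower to Cyp2c55 at 4.23-fold higher. Cyp2c29, a CAR-inducible enzyme, had 1366 CPM in the control and 66.8 in the OGT-KO library with no recovery, 20.4-fold lower (19.4 to 21.5). With 7 days of recovery Cyp2c29 had 1218 and 226 CPM, 5.39-fold lower (5.23 to 5.56). It was thus the furthest below its control of the 29 with no recovery, and it was 3.38-fold higher (3.19 to 3.58) in the OGT-KO library after 7 days than in the one with no recovery, while the controls differed by 1.12-fold in the other direction (1.10 to 1.14).

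Cyp2c37, Cyp2c50 and Cyp2c54 are close copies, with 96.1% identical coding bases between the first pair and 95.2% between the second and Cyp2c54, so reads may be shared among them. Cyp2c50 had 686 and 127 CPM with no recovery and 740 and 136 after 7 days, 5.41-fold (5.20 to 5.63) and 5.43-fold (5.22 to 5.64) lower. Levels of Cyp2c54 were 165 and 34.5 CPM and then 197 and 27.1, 4.78-fold (4.42 to 5.17) and 7.28-fold (6.68 to 7.94) lower. For Cyp2c37 they were 196 and 99.3 CPM and then 233 and 82.6, 1.98-fold (1.88 to 2.08) and 2.82-fold (2.67 to 2.97) lower. Summed over the 3 copies, which does not depend on how shared reads were split among them, the level was 1048 and 261 CPM and then 1170 and 246, 4.02-fold (3.91 to 4.14) and 4.75-fold (4.62 to 4.90) lower.

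Cyp2c70 makes muricholic acids, the rodent bile acids, and Cyp2c23 is an arachidonic acid epoxygenase. Cyp2c70 had 494 and 258 CPM with no recovery, 1.92-fold lower (1.86 to 1.98), and 651 and 315 after 7 days, 2.07-fold lower (2.01 to 2.13). Levels of Cyp2c23 were 380 and 201 CPM, 1.89-fold lower (1.82 to 1.96), and then 412 and 172, 2.39-fold lower (2.30 to 2.48). Both lay just short of the 2-fold call with no recovery and past it after 7 days.

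Another cluster of Cyp2c copies went the other way with no recovery. Cyp2c67 had 143 CPM in the control and 205 in the OGT-KO library with no recovery, 1.43-fold higher (1.37 to 1.50), and 191 and 110 after 7 days, 1.73-fold lower (1.65 to 1.82). Its copy Cyp2c68, 97.1% identical in coding bases, had 109 and 120 CPM, 1.10-fold higher (1.04 to 1.16), and then 142 and 98.7, 1.43-fold lower (1.36 to 1.52). With the low copies Cyp2c40 (5.85 to 7.61 CPM) and Cyp2c69 (1.30 to 1.91 CPM) added, the 4 summed to 260 and 334 CPM and then 342 and 217. Under median-ratio scaling Cyp2c67 and Cyp2c68 were lower at both times, with log2 differences of -0.20 and -1.47 and of -0.58 and -1.20, so the higher value with no recovery is tied to scaling by library totals.

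The other compared Cyp2c members were low. Cyp2c38 had 20.3 and 26.6 CPM and then 13.4 and 13.6, within 2-fold at both times, with log2 differences of -0.32 and -0.62 under median-ratio scaling. Cyp2c55, a CAR-inducible member best known from the intestine, had 12.3 and 21.5 CPM with no recovery and 11.5 and 48.7 after 7 days, 1.75-fold (1.50 to 2.04) and 4.23-fold (3.67 to 4.90) higher. The OGT-KO library after 7 days thus stood alone above the other 3.

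Subfamily Cyp2d was lower by a smaller factor in sum, from 1.51-fold for Cyp2d22 to 2.47-fold for Cyp2d9 after 7 days among the members named here. Its 8 members summed to 3646 and 2063 CPM, 1.77-fold lower (1.75 to 1.79), and after 7 days to 3521 and 1658, 2.12-fold lower (2.10 to 2.15). Cyp2d9, the male-predominant testosterone 16-alpha-hydroxylase, had 1607 and 825 CPM, 1.95-fold lower (1.91 to 1.98), and then 1556 and 629, 2.47-fold lower (2.42 to 2.52). Cyp2d26 had 989 and 608 CPM and then 926 and 478, 1.63-fold (1.59 to 1.66) and 1.94-fold (1.89 to 1.98) lower. Cyp2d10 had 692 and 432 CPM and then 692 and 356, 1.60-fold (1.56 to 1.64) and 1.95-fold (1.89 to 2.00) lower. Both were below the 2-fold call at library-total scaling and past it under median-ratio scaling. For Cyp2d22 the levels were 284 and 192 CPM and then 287 and 190, 1.48-fold (1.42 to 1.53) and 1.51-fold (1.45 to 1.57) lower.

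Cyp2d40 departed from the rest of its subfamily. It had 70.3 CPM in the control and 4.24 in the OGT-KO library with no recovery, 16.6-fold lower (13.5 to 20.6), and 56.5 and 3.10 after 7 days, 18.2-fold lower (14.3 to 23.5). These were the second lowest and the lowest differences among the 29 members. Both OGT-KO libraries lay below 10 CPM, so Cyp2d40 passed the mean filter only through the controls. The 3 Cyp2d members under the mean filter were Cyp2d11 (0.569 to 1.93 CPM, 93.3% identical to Cyp2d9), Cyp2d12 (0.443 to 0.612 CPM, under 1 CPM in every library) and Cyp2d34 (0.443 to 1.03 CPM). Cyp2d9, Cyp2d10 and these 3 together were 1.83-fold (1.80 to 1.86) and 2.28-fold (2.24 to 2.32) lower.

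Subfamily Cyp2j, which makes epoxides of arachidonic acid, summed to 582 and 133 CPM with no recovery, 4.37-fold lower (4.20 to 4.55), and to 589 and 167 after 7 days, 3.53-fold lower (3.40 to 3.66). Cyp2j5 carried it, with 495 and 48.1 CPM, 10.3-fold lower (9.68 to 11.0), and then 497 and 80.2, 6.20-fold lower (5.89 to 6.52). Cyp2j9 went the same way at a low level, with 11.4 and 2.23 CPM, 5.13-fold lower (3.78 to 7.08), and then 11.5 and 3.06, 3.77-fold lower (2.87 to 5.00). Cyp2j6 did not, with 75.7 and 82.9 CPM and then 80.5 and 83.7, 1.09-fold (1.02 to 1.17) and 1.04-fold (0.972 to 1.11) higher, although its log2 difference turned to -0.58 and -0.62 under median-ratio scaling. Cyp2u1, a fatty acid hydroxylase, had 66.1 and 34.5 CPM, 1.92-fold lower (1.76 to 2.09), and then 62.8 and 26.0, 2.42-fold lower (2.19 to 2.67).

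Of the subfamilies that summed to over 100 CPM, Cyp2a was the only 1 that was 2-fold or more higher in the OGT-KO libraries at both times at library totals; under median-ratio scaling the log2 ratio of its sum was 1.04 and then 0.50. It summed to 1269 and 4305 CPM with no recovery, 3.39-fold higher (3.35 to 3.44), and to 1126 and 2570 after 7 days, 2.28-fold higher (2.25 to 2.32), and its share of all member reads went from 5.15% to 25.6% and from 4.44% to 16.4%. Cyp2a5, the coumarin 7-hydroxylase that also oxidises nicotine, had 649 and 2646 CPM, 4.08-fold higher (4.0 to 4.16), and then 560 and 1751, 3.13-fold higher (3.06 to 3.20). Under median-ratio scaling its log2 difference was 1.31 and then 0.96, just short of the call after 7 days. Per kilobase it ranked 11 and 13 of 46 in the controls and 2 in both OGT-KO libraries.

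Cyp2a4, the female-predominant testosterone 15-alpha-hydroxylase, showed the widest difference of the 29 compared members. It had 8.94 CPM in the control and 963 in the OGT-KO library with no recovery, 108-fold higher (93.4 to 125), and 9.66 and 193 after 7 days, 20.0-fold higher (17.3 to 23.2). Both controls lay below 10 CPM, so Cyp2a4 passed the mean filter only through the OGT-KO libraries. Members under the filter, given below, were not ranked with it. Between the OGT-KO libraries it was 4.98-fold lower after 7 days (4.82 to 5.15), while between the controls it was 1.08-fold higher (0.880 to 1.33). Cyp2a4 took 0.705% and 22.4% of Cyp2a reads with no recovery and 0.858% and 7.52% after 7 days, and Cyp2a5 took 51.1% and 61.5% and then 49.7% and 68.1%. How reads that match both of this 98.4% identical pair were counted is not given in the sources used here, so their split is uncertain. Their sum was 658 and 3609 CPM and then 569 and 1945, 5.49-fold (5.39 to 5.59) and 3.42-fold (3.35 to 3.49) higher.

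Not every copy in this cluster differed by that much. Cyp2a12, a testosterone 7-alpha-hydroxylase, had 606 and 686 CPM and then 553 and 609, 1.13-fold (1.10 to 1.16) and 1.10-fold (1.07 to 1.13) higher, with log2 differences of -0.54 and -0.55 under median-ratio scaling. Cyp2a22, 97.0% identical to it, had 4.61 and 10.1 CPM and then 4.31 and 16.9, 2.18-fold (1.72 to 2.79) and 3.93-fold (3.10 to 5.03) higher.

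**Figure D2:**
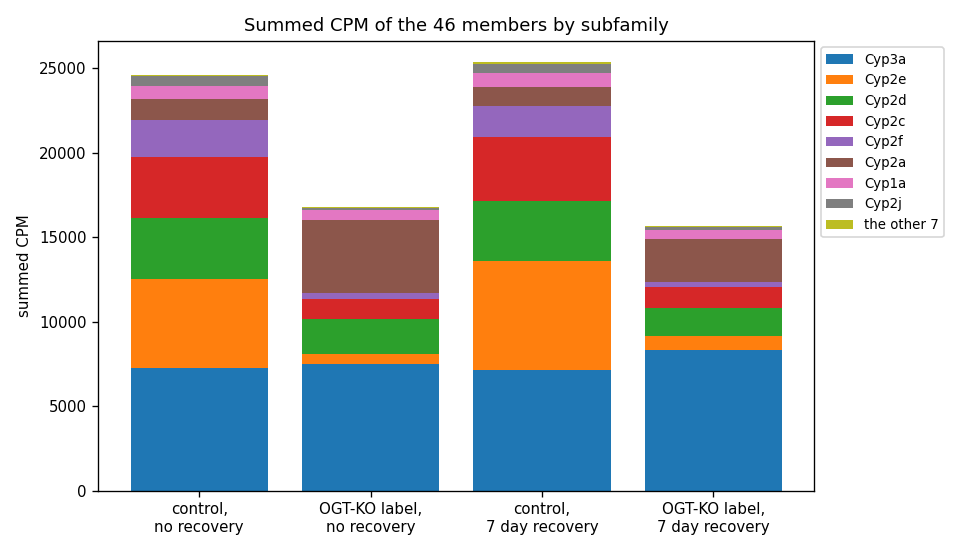
Summed CPM of the 46 members in each of the 4 libraries, stacked by subfamily, with the 7 smallest subfamilies joined. The bars total 24630, 16816, 25370 and 15681 CPM, the Cyp2e, Cyp2c and Cyp2f layers are thinner and the Cyp2a layer thicker in the OGT-KO libraries, and the Cyp3a layer is of similar height in all 4.

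Subfamily Cyp3a, the main drug-oxidising subfamily of liver, was within 1.17-fold between labels at library totals. Under median-ratio scaling the log2 ratio of its sum was -0.68 with no recovery and -0.46 after 7 days. The subfamily summed to 7274 and 7497 CPM, 1.03-fold higher (1.02 to 1.04), and after 7 days to 7126 and 8310, 1.17-fold higher (1.16 to 1.17). Since the other subfamilies were mostly lower, its share of member reads was 29.5% and 44.6% with no recovery and 28.1% and 53.0% after 7 days. Cyp3a11, the leading PXR target, had 6582 and 6898 CPM, 1.05-fold higher (1.04 to 1.06), and then 6299 and 7666, 1.22-fold higher (1.21 to 1.23). Its direction turned under median-ratio scaling, to log2 differences of -0.65 and -0.40. Per kilobase it ranked 2 in both controls, with 22.3% and 20.6% of the pool, and 1 in both OGT-KO libraries, with 35.7% and 43.4%.

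Within Cyp3a, the near-identical Cyp3a25 and Cyp3a59 lay on opposite sides of their controls. Cyp3a25 had 518 and 347 CPM, 1.49-fold lower (1.45 to 1.54), and then 614 and 434, 1.41-fold lower (1.38 to 1.45). Cyp3a59 had 45.1 and 117 CPM, 2.60-fold higher (2.42 to 2.80), and then 59.3 and 137, 2.30-fold higher (2.15 to 2.46), a difference that fell short of the call under median-ratio scaling (0.65 and 0.51 on the log2 scale). Their sum was 564 and 465 CPM and then 673 and 571, 1.21-fold (1.18 to 1.25) and 1.18-fold (1.15 to 1.21) lower, and here too the split between the copies is uncertain. Cyp3a13, a distinct member, had 129 and 128 CPM with no recovery, 1.01-fold lower (0.958 to 1.06), and 155 and 64.7 after 7 days, 2.39-fold lower (2.25 to 2.55).

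Cyp1a2, the AHR target that oxidises caffeine and aromatic amines and is held to pericentral hepatocytes, had 754 and 565 CPM, 1.33-fold lower (1.30 to 1.37), and then 776 and 508, 1.53-fold lower (1.49 to 1.57). It was not past 2-fold at library-total scaling and was past it under median-ratio scaling, with -1.13 and -1.30 on the log2 scale. The other AHR targets had lower levels and the other direction. Cyp1a1, whose window above holds the AHR core, had 0.941 and 4.85 CPM, 5.16-fold higher (3.19 to 8.77), and then 0.851 and 5.10, 5.99-fold higher (3.58 to 10.6). Cyp1b1, which oxidises oestrogens and polycyclic hydrocarbons and is known from stellate and other mesenchymal cells, had 0.659 and 4.81 CPM, 7.30-fold higher (4.17 to 13.8), and then 0.901 and 7.13, 7.92-fold higher (4.85 to 13.7).

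Among the CAR targets, members did not move as 1 group. Cyp2b10, the classical phenobarbital-inducible gene, had 6.96 and 33.7 CPM, 4.84-fold higher (4.06 to 5.81), and then 10.6 and 40.9, 3.87-fold higher (3.33 to 4.52), while Cyp2c29 and Cyp2c37 were lower and Cyp2c55 was higher, as given above. The 4 summed to 1582 and 221 CPM and then to 1473 and 398, a sum led by Cyp2c29.

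**Figure D3:**
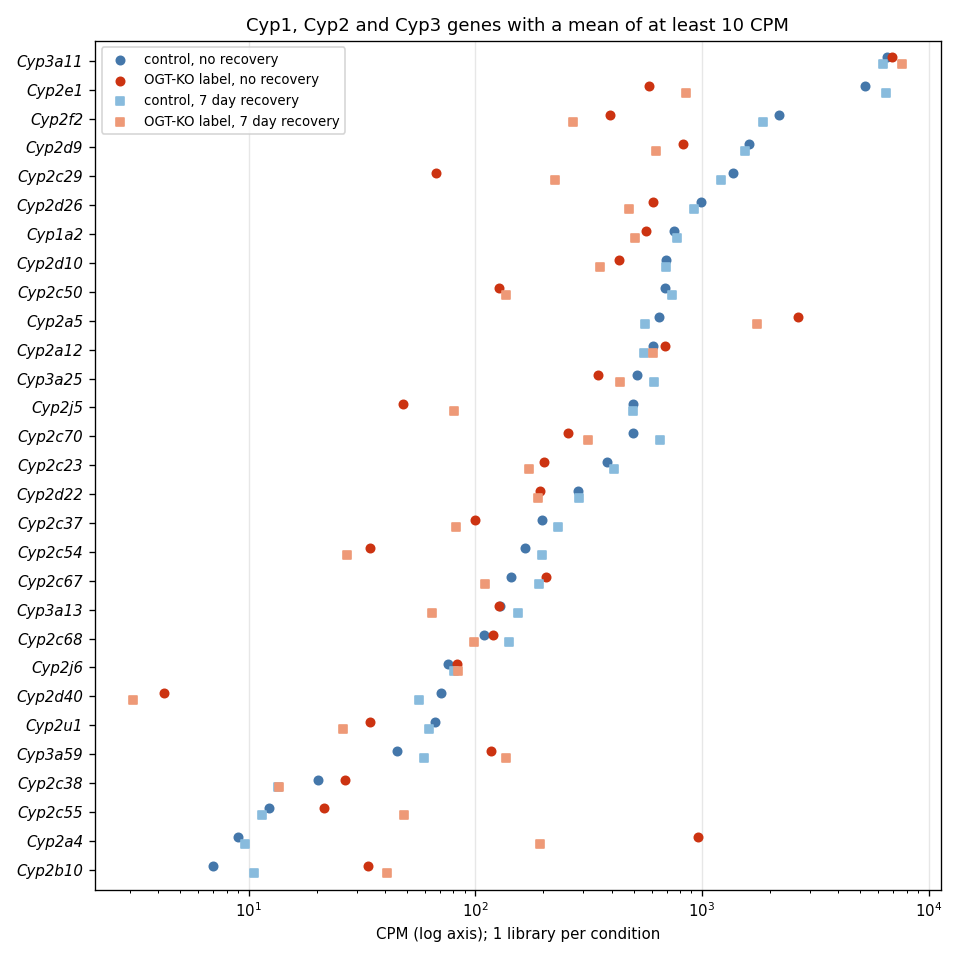
CPM (log axis) of the 29 compared members in the 4 libraries, ordered by the control with no recovery; circles are no recovery, squares 7 days, and each point is 1 library of 3 pooled mice. The 2 controls lie close together in nearly every row, and the OGT-KO points lie left of them for most genes. They lie right of them for Cyp2a4, Cyp2a5, Cyp2b10, Cyp2c55 and Cyp3a59 and, by less, for Cyp2a12, Cyp2j6 and Cyp3a11.

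Female-predominant members were looked at as a group because Cyp2a4 is 1 of them. Of the 7 in that group, Cyp2b13 was not among the listed genes and only Cyp2a4 passed the mean filter. The 6 summed to 17.0 and 984 CPM with no recovery and to 19.0 and 218 after 7 days, mostly Cyp2a4. Cyp2b9 had 1 read (0.0470 CPM) in the control and 5.77 CPM in the OGT-KO library with no recovery, a ratio of 123 (21.6 to 4883), and 0.250 and 9.17 CPM after 7 days, 36.6-fold higher (15.5 to 114). Cyp3a44, a female-predominant Cyp3a, had 0.0941 and 5.82 CPM, a ratio of 61.8 (16.8 to 516), and then 0.150 and 7.13, a ratio of 47.5 (16.0 to 233), where the controls held 2 and 3 reads. Cyp3a16, known from the fetal and neonatal liver, had 0.0941 and 0.394 CPM, a ratio of 4.18 (0.866 to 39.8), and then 0.0501 and 1.11, a ratio of 22.1 (3.62 to 908), on 2 and 1 control reads. Cyp2c40 and Cyp2c69 did not share this, with ratios of 1.24 (0.980 to 1.57) and 0.930 with no recovery and 0.769 and 1.46 after 7 days. RNA of 4 Y-linked genes summed to 114, 119, 118 and 118 CPM in the 4 libraries, so males were in every pool, and the sex of each mouse is not in the labels.

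The other members under the mean filter were as follows. Cyp2s1, known from epithelia outside the liver, had 0.612 and 9.58 CPM, 15.7-fold higher (8.97 to 29.9), and then 0.300 and 10.5, 34.8-fold higher (15.8 to 95.8). Cyp2c39, a retinoic acid hydroxylase, had 1.27 and 4.15 CPM, 3.27-fold higher (2.11 to 5.22), and then 0.501 and 3.68, 7.35-fold higher (3.80 to 15.9). Cyp2r1, the vitamin D 25-hydroxylase, had 10.3 and 5.99 CPM, 1.73-fold lower (1.39 to 2.15), and then 12.6 and 5.36, 2.34-fold lower (1.88 to 2.94). Of the 17 low members, 7 had counting intervals above 1 at both times (all 4940 genes below the mean filter: 70.8%) and 3 had intervals below 1 at both times (3.68%). Cyp2g1, an olfactory enzyme, stayed between 1.37 and 1.65 CPM and Cyp2t4 between 1.30 and 1.79 CPM.

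**Figure D4:**
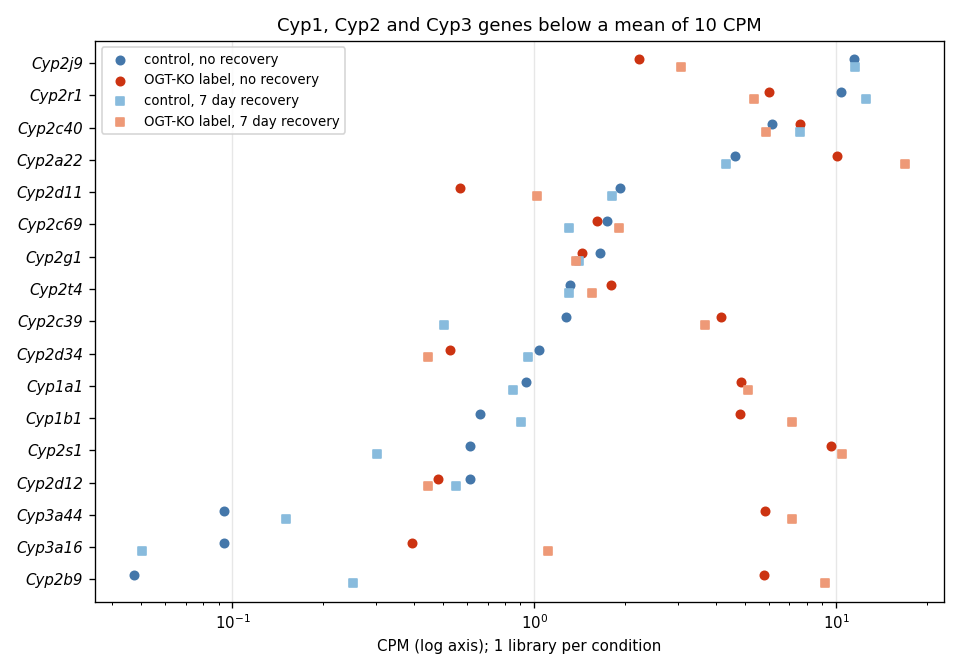
CPM (log axis) of the 17 members with a mean below 10 CPM in the 4 libraries, with the same symbols. Cyp1a1, Cyp1b1, Cyp2a22, Cyp2b9, Cyp2c39, Cyp2s1 and Cyp3a44 lie further right and Cyp2d11, Cyp2j9 and Cyp2r1 further left in the OGT-KO libraries, the 7 and 3 counted above; Cyp3a16 rests on 1 or 2 control reads.

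Recovery moved few members. Between the controls, 0 of 29 were called higher (all compared genes: 0.245%) and 0 lower (0.960%), and the log2 differences ran from -0.56 for Cyp2c38 to 0.54 for Cyp2b10. By exact binomial test with Benjamini-Hochberg adjustment on the recovered reads, a comparison of these 2 libraries rather than of the times, 3557 of the 8963 genes differed between the controls at an adjusted p under 0.05. Between the OGT-KO libraries Cyp2c29 and Cyp2c55 were called higher after 7 days (2 of 29, all genes 1.04%) and Cyp2a4 lower (1 of 29, all genes 0.435%). The median log2 difference of the members over recovery was 0.04 between controls and -0.22 between OGT-KO libraries, against -0.05 and -0.03 for all genes. Cyp2e1 was 1.24-fold higher (1.23 to 1.25) after 7 days in the controls and 1.45-fold higher (1.42 to 1.48) in the OGT-KO libraries, still below its control by the factor given above. Cyp2j5 was 1.67-fold higher (1.55 to 1.80) after 7 days between OGT-KO libraries, and 1.0-fold (0.977 to 1.03) between controls. These comparisons use the same 4 libraries as those between labels and are not independent of them. All 6 macrophage markers were called lower after 7 days between the controls, so that the livers differed in more than the members over that time.

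The partners that feed electrons and haem to these enzymes were mostly within 2-fold under either scaling. Under median-ratio scaling 5 of the 15 listed were lower with no recovery (all genes: 15.4%) and 3 after 7 days (11.8%). Hmox1 alone was higher (all genes: 10.4% and 11.6%). At library totals Hmox1, which breaks down haem, was called higher at both times, with 20.4 and 100.02 CPM and then 16.0 and 71.5. Cyb5b, a cytochrome b5 of the mitochondrial outer membrane, was called lower with no recovery alone at library totals, with 659 and 256 CPM and then 487 and 315, and at both times under median-ratio scaling (-2.08 and -1.31). Por, the reductase, had 234 and 333 CPM and then 269 and 383, 1.42-fold and 1.43-fold higher, about the shift of all genes, and its log2 difference was -0.21 and -0.17 under median-ratio scaling. Alas1, which makes the first haem precursor, had 611 and 437 CPM and then 421 and 457.

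Of the receptors and regulators, 27 of the 29 listed were compared. At both times 2 were called higher (all genes: 19.2%) and 2 lower (3.74%). Nfe2l2, the antioxidant factor NRF2 that is known to act on Cyp2a5, had 57.0 and 171 CPM and then 48.5 and 160, and Ctnnb1, which encodes beta-catenin, had 189 and 384 and then 183 and 395, though under median-ratio scaling Ctnnb1 was within 2-fold at both times (0.30 and 0.42 on the log2 scale) and Nfe2l2 with no recovery (0.86 and 1.02). Ghr, the growth hormone receptor, had 502 and 119 CPM and then 410 and 124, 4.23-fold and 3.30-fold lower. Onecut1, a hepatocyte factor that acts on sex-specific genes, had 40.9 and 11.2 CPM and then 50.4 and 16.0.

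The receptors for foreign compounds differed among themselves. Nr1i3 (CAR) had 182 and 66.8 CPM, 2.72-fold lower, and then 159 and 79.8, 2.00-fold lower on the CPM ratio but just short of the call on the log2(CPM + 1) scale (-0.99), and past it under median-ratio scaling at both times (-2.14 and -1.67). Nr1i2 (PXR) had 64.1 and 101 CPM and then 56.3 and 103, 1.57-fold and 1.84-fold higher, with log2 differences of -0.06 and 0.19 under median-ratio scaling. Ahr had 23.0 and 42.9 CPM and then 23.4 and 53.4, 1.87-fold and 2.29-fold higher, called after 7 days alone and at neither time under median-ratio scaling (0.18 and 0.49 on the log2 scale). Hnf4a, the main liver nuclear factor, had 851 and 335 CPM, 2.54-fold lower, and then 864 and 458, 1.89-fold lower, with log2 differences of -2.06 and -1.60 under median-ratio scaling. Cebpa had 502 and 251 CPM and then 557 and 265, with -1.71 and -1.75 under that scaling. In all, 7 of the 27 were called lower (all genes: 5.69%) and 2 higher (24.4%) with no recovery, and 3 lower (4.27%) and 3 higher (22.9%) after 7 days. Under median-ratio scaling 15 were lower (15.4%) and 0 higher (10.4%) with no recovery, and 14 lower (11.8%) and 1 higher (11.6%) after 7 days. At library totals the regulators had a median log2 difference of -0.33 and -0.40 against 0.51 and 0.48 for all genes. The part of any of these regulators in the members' values was not tested.

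**Figure D5:**
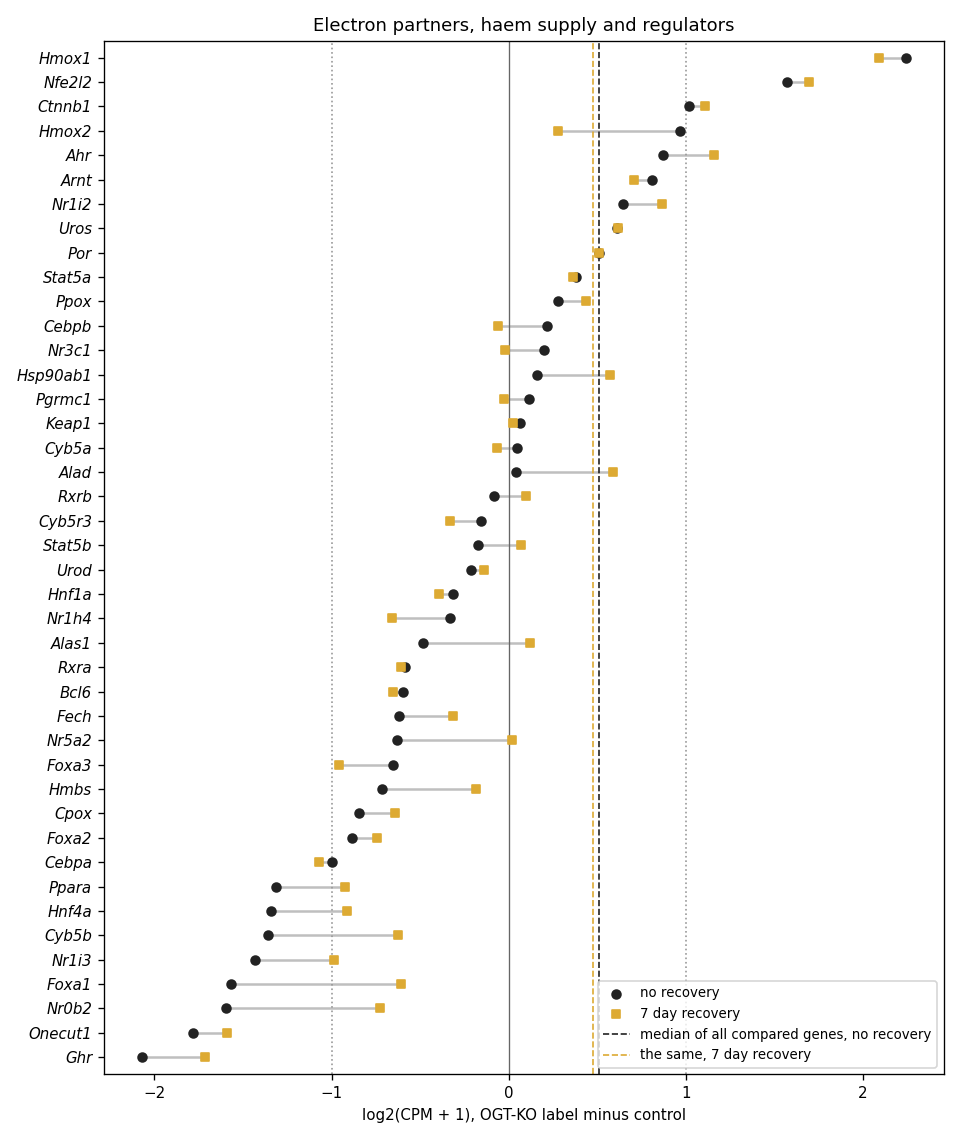
Difference in log2(CPM + 1), OGT-KO label minus control, of the 15 electron and haem genes and the 27 compared regulators with no recovery (circles) and after 7 days (squares), 1 library per condition; dotted lines mark 2-fold and dashed lines the median of all compared genes. Hmox1, Nfe2l2 and Ctnnb1 lie past 2-fold on the right and Ghr and Onecut1 on the left at both times.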

How the data were processed

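Total RNA was isolated with TRIzol from liver, and libraries were made with the Tecan universal plus mRNA-seq kit, per the labels. The submitters' processing notes name STAR, DESeq2 and GRCm39, without version or role; the counter, its use of strand and the handling of reads that match several copies are not given in the sources used here. The authors deposited a table of CPM: although it is named for DESeq2 normalization, each column sums to 1000000. Within 0.01 read, 100% of the values of each library were whole reads, and these were recovered (19972699 to 22866431 per library). The limit that a count of 0 allows, 3 reads, was 0.131 to 0.150 CPM; ratios over 1 to 3 reads are given with their counting interval. No molecular identifiers are described, so intervals cover counting error only.

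The members and gene lists were chosen with earlier results of these data known. Members with a mean of at least 10 CPM are named with all 4 values, lower ones that reach 1 CPM in any library with the values of their group or their range, and the rest as low; list genes are named when called alike at both times or when they are the receptor or partner in question. Differences are of log2(CPM + 1), called at 2-fold among the 8963 genes whose mean reached 10 CPM; with 1 library per condition there is no test between conditions. Ratios of CPM have 95% exact binomial intervals from the reads (Clopper-Pearson, conditional on the sum). The count test asked for whole reads was an exact binomial test with Benjamini-Hochberg adjustment (0.05), which compares libraries: it called 8016 and 7904 of 8963 genes between labels with no recovery and after 7 days, 3557 between controls and 5065 between OGT-KO libraries. The comparisons were run on CPM as designed. Other scalings were upper quartile, median ratio and TMM (edgeR 4.0.16 in R 4.3.3), with other pseudocounts, filters and thresholds. Transcript lengths and coding identity came from GENCODE M21 (GRCm38), 1 principal transcript per gene, and promoters from RefSeq (GRCm38.p6), a build other than that of the files, so gene positions are not given. The steps were tested on simulated reads. Python 3.11, numpy 2.4.6, pandas 2.3.3, scipy 1.17.1, Biopython 1.88 and matplotlib 3.10.9 were used.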

Additional observations from a re-analysis of the deposited data

Results flagged for a closer look

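For 3 members, the libraries of the 2 labels or times lay on opposite sides, with counting intervals that exclude 1 on both sides and a difference between the log2 differences of at least 1. With 1 library per condition this difference was not tested. Cyp2c29 was 3.38-fold higher after 7 days between the OGT-KO libraries and 1.12-fold lower between the controls, so its log2 difference between labels moved by 1.91 towards the control over recovery. Cyp3a13 was 1.98-fold lower after 7 days between the OGT-KO libraries and 1.20-fold higher between the controls, a difference of -1.23 between the log2 differences. Cyp2c67 was 1.43-fold higher in the OGT-KO library with no recovery and 1.73-fold lower after 7 days, and it was 1.34-fold higher after 7 days between the controls and 1.86-fold lower between the OGT-KO libraries, a difference of -1.30 for both views of the same 4 values. Under median-ratio scaling Cyp2c67 was lower at both times (-0.20 and -1.47).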

How the results depend on the processing

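No paired analysis was possible because the labels number no replicates and each condition has 1 library; the 2 times are given side by side. No library was left out, since that would leave a condition empty. No member past 2-fold changed direction under any scaling or pseudocount tried, and no subfamily past 2-fold did under any scaling. This could not have come out otherwise and is no check. A pseudocount does not change the sign of a difference, and every scaling tried moved the differences by less than 2-fold. Of 131 member differences within 2-fold, 15, 17 and 16 changed sign under upper-quartile, median-ratio and TMM scaling. The other scalings moved counts, those of members and those of all genes. With no recovery, 5.69% of all compared genes were called lower at library totals and 15.4% under median-ratio scaling. Shares of all genes were not taken for upper-quartile or TMM scaling, so the counts there are not read as a result about the members. Members called lower with no recovery numbered 16 under upper-quartile and 17 under median-ratio or TMM scaling (7 as reported), at both times 15, 17 and 17 (7), and after 7 days 20 under median-ratio and TMM scaling (13). Members called higher after 7 days numbered 3 under both of these (5), and at both times 2 (4). Subfamilies 2-fold lower with no recovery numbered 7, 8 and 8 (4), and between controls 0 under all 3 (1, Cyp2s, on a few reads). The log2 ratio of the summed members moved from -0.55 to -1.03, -1.27 and -1.21 with no recovery (upper quartile, median ratio, TMM), from -0.69 to -1.18, -1.38 and -1.37 after 7 days, from 0.0427 to 0.0943, 0.0824 and 0.0876 between controls, and from -0.10 to -0.0542, -0.0271 and -0.0803 between OGT-KO libraries.

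Without the filter, members called higher numbered 10 of 46 with no recovery (4 of 29), 13 after 7 days (5) and 10 at both times (4), because the low members then counted, beside 33.1%, 32.3% and 26.9% of all 13903 genes, and the median of members less that of all genes was -0.74 with no recovery, -1.07 after 7 days and -0.022 between OGT-KO libraries. A mean of at least 50 gave 3 higher after 7 days, 1 higher between OGT-KO libraries (2), and medians of -0.90 and -1.25 between labels. A pseudocount of 10 gave medians of -0.95 and -1.31 and 1 higher between OGT-KO libraries. At 4-fold, 1 was higher and 7 lower after 7 days, 1 higher at both times and 0 higher between OGT-KO libraries. Shares of all genes were not taken at the mean of 50, the pseudocount of 10 or 4-fold. The counts at these settings are therefore not read as a result about the members. The binomial test with the 2-fold call and the pseudocount of 0.1 left each count within 1.5 times. Depth does not limit the abundant members, but members under 1 CPM rest on a few reads.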
